A study of Homo sapiens with 4 samples.

Results

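The subject was a set of 56 genes of DNA replication licensing and of the replication fork, taken from a written list of symbols of origin licensing, helicase, polymerase, clamp and chromatin assembly genes. All 56 symbols matched 1 Ensembl gene each among the 60880 genes of the counts, and all 56 had enough reads to be tested. RNA-Seq counts came from 4 libraries of a human prostate cancer line. LNCaP95 cells, which descend from LNCaP and no longer need androgen to grow, gave 2 libraries labelled wild type (replicates 1 and 2). LN95(KO), made from LNCaP95 with CRISPR vectors aimed at the steroid-conjugating enzyme gene UGT2B17, gave the other 2 (replicates 3 and 4). All cells were kept in medium with charcoal-stripped serum, which is low in steroids, and none were treated before RNA was taken. The labels give LN95 as the cell line of every library, the series description names LNCaP for the knockout, and how many knockout clones were used is not stated.

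In the G1 phase the origin recognition complex (ORC), CDC6 and CDT1 load the ring-shaped helicase MCM2-7 onto DNA, a step called licensing. At the start of S phase, kinases and firing factors attach CDC45 and the GINS proteins to that ring and so turn it into a working helicase. Polymerase alpha with primase then begins each strand, polymerases epsilon and delta extend it around the sliding clamp PCNA, and chromatin assembly factor 1 (CAF-1) puts histones back behind the fork. Transcripts of many of these genes are known to rise when cells leave quiescence and enter the cycle, through E2F factors at their promoters.

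Libraries held 17330338 to 18813193 reads on genes, and 23775 to 24173 genes had a read. UGT2B17 had 2788 and 2748 reads in LNCaP95 against 21 and 20 in LN95(KO), in the direction of the labels. The luminal prostate markers HOXB13, FOLH1, KRT8 and KRT18 had at least 2205 counts in every library. The luminal list was not steady, however. By the rule given below, 4 of its 9 genes were called higher, against 8.86% of all genes tested. FOLH1 was the 1 called lower, against 9.13%, with 17727 and 17218 reads in LNCaP95 against 6971 and 6915 in LN95(KO). The immune markers CD3E, CD68 and LST1, the fibroblast marker DCN and the endothelial marker CDH5 had 0 counts in all 4, PTPRC had at most 1, and KRT5 and TP63 had at most 3. The 0 of CD68 says little, since exons of other genes cover 85.6% of its exon bases and reads on several genes were dropped. COL1A1 had 520 to 606 counts. Low markers that moved were VWF (8 and 8 reads in LNCaP95 against 49 and 58 in LN95(KO)), KRT14 (1 and 2 against 17 and 20) and LUM (24 and 19 against 0 and 0), and their part in the results was not tested. Libraries of a group differed by more than sampling noise, and nothing states that they came from separate cultures, so the p-values may measure technical spread only.

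Replication genes stood higher in LN95(KO) across most of the fork. Calling a gene took an adjusted p under 0.05 (edgeR quasi-likelihood test, Benjamini-Hochberg over all 15626 genes tested) together with a fold change over 2. By that rule 37 of the 56 genes were called higher, against 8.86% of all genes tested. None, or 0 of 56, were called lower by edgeR or by DESeq2, against 9.13% of all genes, and 1 gene, ORC4, was lower at an unadjusted p under 0.05. The remaining 19 were not called. Without the fold criterion 54 of the 56 passed, against 59.8% of all genes, and 53 of them were higher, against 29.8%. The median log2 fold change, LN95(KO) over LNCaP95, was 1.32 for the 56 genes and -0.01 for all genes tested, whose 95th percentile was 1.57. After scaling, 55 of the 56 genes had no overlap between the groups, compared with 79.8% of all genes.

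The 56 genes were sorted into 14 complexes and groups by function. Every member was called higher in 5 of them: the helicase activators, the alternative clamp loaders, lagging strand maturation, CAF-1 and a group of other fork factors. Some members were called in 8, and no member in 1, replication protein A. Among all genes tested 8.86% were called higher, the share to set beside each count by group here and below. Group medians ran from 0.32 for ORC to 2.66 for the other fork factors. The groups are small, and no test was made of one group against another.

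**Figure D1:**
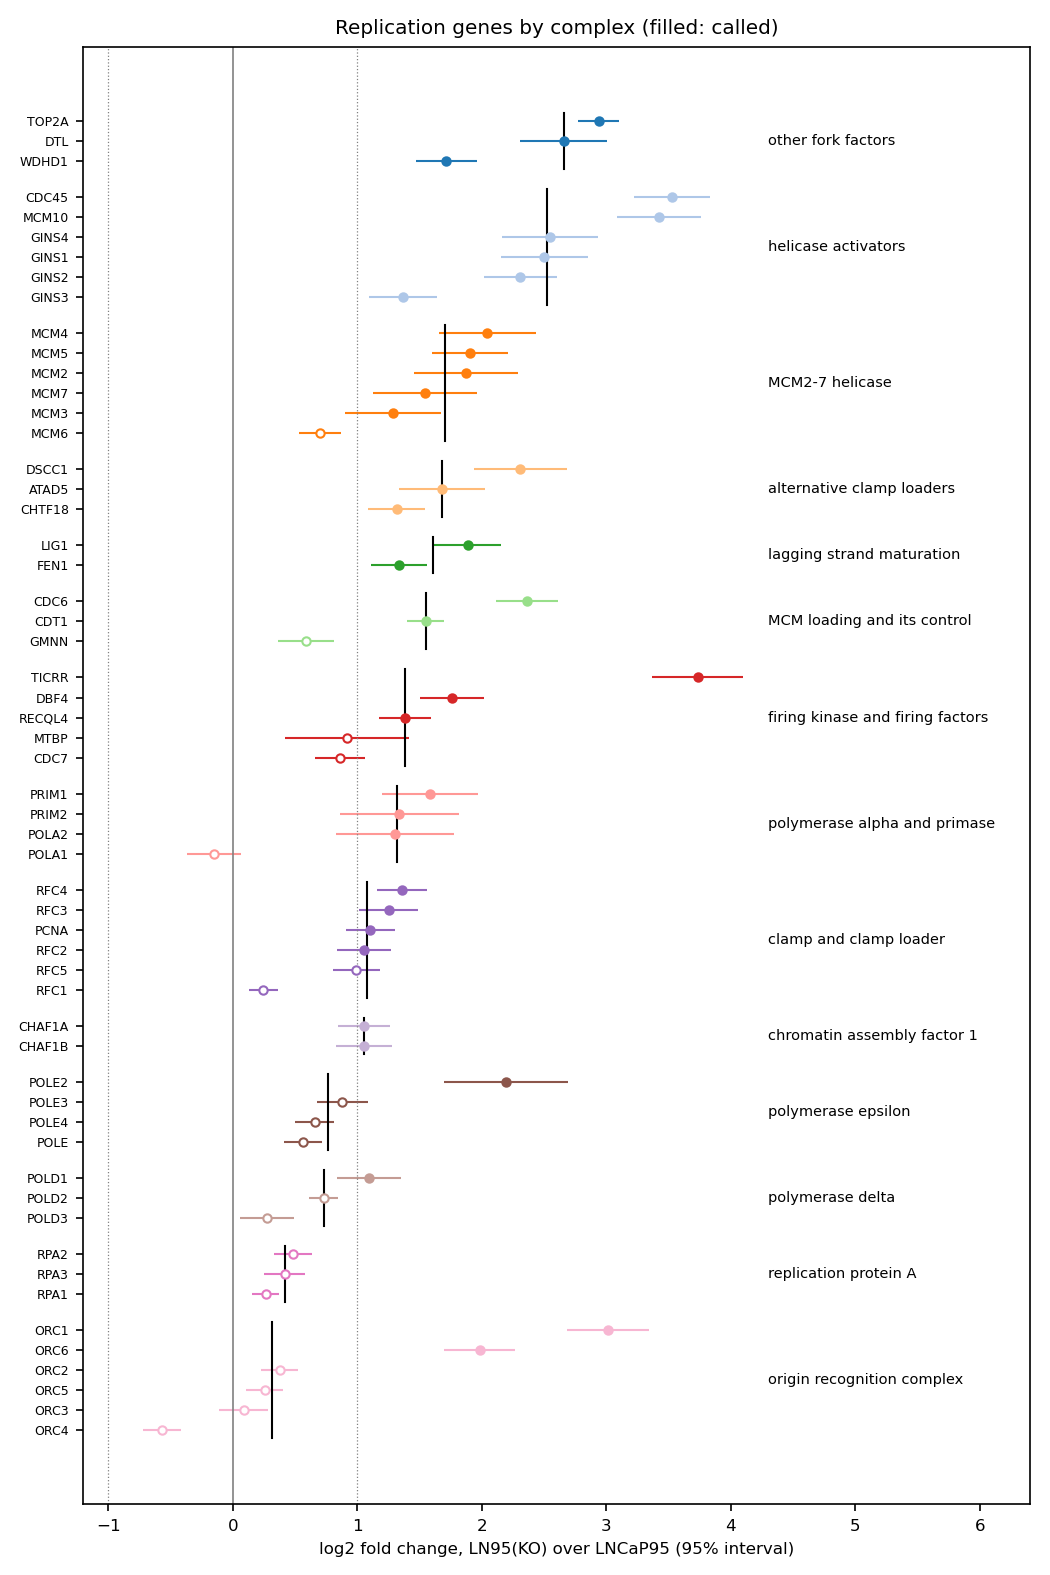
Log2 fold change of each of the 56 genes (x axis, LN95(KO) over LNCaP95, with 95% intervals), sorted by complex with the complex medians as black bars; filled points were called and dotted lines mark a 2-fold change. The helicase activators lie at 1.37 to 3.53, while ORC spans -0.57 to 3.01.

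In bulk RNA, a change in the share of cells of a type and a change in RNA per cell cannot be told apart. This holds for cells in S phase. Mitotic genes, which hold none of the 56, were all called higher, 24 of 24, against 8.86% of all genes tested. Their median log2 fold change was 3.06. AURKB, the kinase of the chromosomal passenger complex, had 56 and 73 reads in LNCaP95 against 933 and 1155 in LN95(KO), and its log2 fold change was 4.05. ESPL1, the protease separase, had 79 and 78 reads against 862 and 1115, a log2 fold change of 3.68. The part of this shift in the values of the replication genes was not tested.

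**Figure D2:**
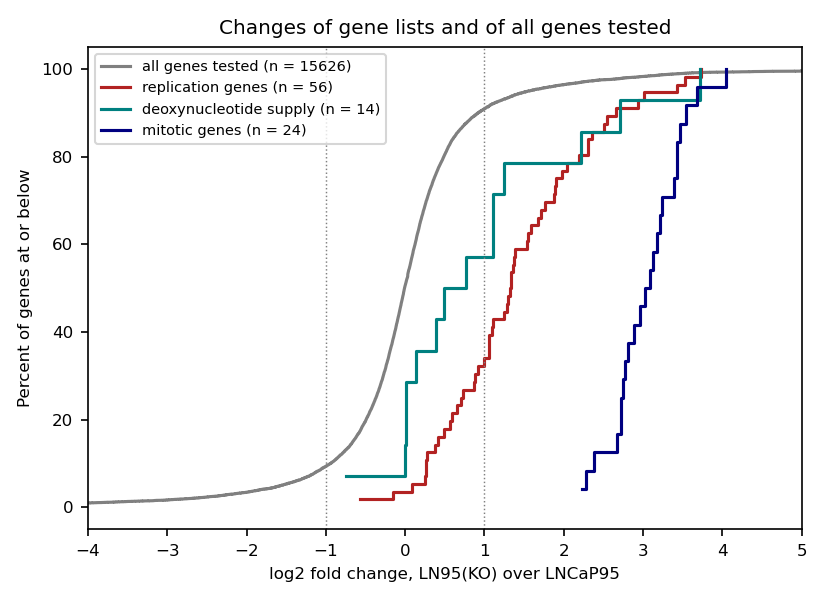
Cumulative percent of genes (y axis) at or below each log2 fold change (x axis) for all 15626 genes tested, the 56 replication genes, 14 genes of deoxynucleotide supply and 24 mitotic genes. The replication genes have a median of 1.32, between all genes at -0.01 and the mitotic genes at 3.06.

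Promoters were searched for words known from cell cycle genes, because the genes moved together. RefSeq promoters on GRCh38.p14, from 250 bases before to 50 bases after a start, were at hand for 46 of the 56 genes. The E2F octamers searched were TTTCCCGC, TTTCGCGC, TTTGCCGC and TTTGGCGC on both strands, where 2 matches may overlap. The 46 genes had 59 promoters, and a gene with several was counted by the one with the most matches. MCM7, GMNN, PCNA and CDC7 were thus counted as holding octamers although each also had a promoter with 0. At least 1 octamer was present for 21 of the 46 genes (45.7%), compared with 3.99% of the 27305 genes with a promoter and 6.48% of those among the tested genes. The share was 14 of 31 (45.2%) among the genes called higher and 7 of 15 (46.7%) among those not called. All 4 MCM2-7 genes with a promoter at hand held 2 or more in at least 1 promoter, and CDC6, CDT1 and GMNN held 1 each. MCM10, which is not part of that ring, held 0 and was called higher. Among ORC genes only ORC3 held one, and its counts hardly moved. CCAAT, on either strand, was present for 27 of the 46 genes (58.7%) against 42.9% of tested genes. Its share was lower among the genes called higher, 16 of 31 (51.6%), than among those not called, 11 of 15 (73.3%). The cell cycle homology words TTTGAA and TTCGAA were present for 4 of 46 (8.70%) against 15.1% of tested genes. A match is a description of letters and not of bound factor.

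The promoters below were chosen because they pair a match with each outcome: MCM2 was called higher, MCM6 has the most octamers and was not called, POLA1 has 1 octamer and overlapping groups, and ORC1 has none and was called higher. Capitals mark the octamers, which overlap in MCM2 and within both sites of MCM6. Only exact words were counted, so stretches that differ from them by a letter, as in ORC1, are not marked.
MCM2 (chr3:127598161-127598460, plus strand): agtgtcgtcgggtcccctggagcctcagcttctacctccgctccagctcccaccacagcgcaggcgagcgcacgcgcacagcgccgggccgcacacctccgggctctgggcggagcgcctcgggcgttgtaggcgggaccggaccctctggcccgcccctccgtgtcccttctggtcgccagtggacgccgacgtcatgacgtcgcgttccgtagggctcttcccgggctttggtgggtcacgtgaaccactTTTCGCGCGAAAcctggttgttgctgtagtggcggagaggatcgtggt
MCM6 (chr2:135876394-135876693, minus strand): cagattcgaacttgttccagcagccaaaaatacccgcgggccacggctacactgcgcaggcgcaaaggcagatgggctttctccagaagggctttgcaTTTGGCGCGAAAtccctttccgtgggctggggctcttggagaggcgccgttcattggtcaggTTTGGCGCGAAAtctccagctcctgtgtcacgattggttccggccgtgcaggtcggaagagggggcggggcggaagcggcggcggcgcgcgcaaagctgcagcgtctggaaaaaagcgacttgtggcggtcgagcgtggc
POLA1 (chrX:24693668-24693967, plus strand): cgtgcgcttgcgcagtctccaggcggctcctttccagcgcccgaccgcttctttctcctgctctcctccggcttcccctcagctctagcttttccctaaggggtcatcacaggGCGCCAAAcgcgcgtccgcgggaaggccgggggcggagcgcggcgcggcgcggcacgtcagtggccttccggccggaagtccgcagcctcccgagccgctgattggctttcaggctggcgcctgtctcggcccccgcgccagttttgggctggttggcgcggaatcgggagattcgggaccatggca
ORC1 (chr1:52404374-52404673, minus strand): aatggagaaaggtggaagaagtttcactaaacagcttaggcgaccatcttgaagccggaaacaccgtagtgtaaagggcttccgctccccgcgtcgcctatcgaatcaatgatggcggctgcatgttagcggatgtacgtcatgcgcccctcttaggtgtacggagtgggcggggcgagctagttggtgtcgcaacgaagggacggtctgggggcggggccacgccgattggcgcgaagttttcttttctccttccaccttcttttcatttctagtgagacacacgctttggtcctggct

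ORC, which marks origins and holds 6 subunits, split in its response. ORC1 and ORC6 were called higher, and ORC2, ORC3, ORC4 and ORC5 were not called. ORC1, the subunit that recruits CDC6 and is degraded after licensing in human cells, lies at chr1:52838501-52870095 of GRCh37. ORC1 had 48 and 42 reads in LNCaP95 against 314 and 398 in LN95(KO). Its level went from 2.45 ± 0.217 to 19.8 ± 2.88 CPM, counts scaled to library size (SD, n = 2 libraries each). The log2 fold change was 3.01 (standard error 0.16 and adjusted p 2.52e-11, edgeR). ORC6, a smaller and loosely held subunit, had 91 and 81 reads against 299 and 367, a log2 fold change of 1.98 (SE 0.13). Both genes thus had every LN95(KO) count more than 3 times every LNCaP95 count.

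The 4 other ORC subunits lay between -0.57 and 0.38 on the log2 fold change scale. ORC2 had 580 and 591 reads in LNCaP95 against 734 and 753 in LN95(KO), and ORC5 had 876 and 781 against 922 and 1014. Their log2 fold changes were 0.38 and 0.26, with 95% intervals above 0 but short of 2-fold. For ORC5 the value was 0.18 without LNCaP95 replicate 2 and 0.34 without LNCaP95 replicate 1. ORC3 had 316 and 319 reads against 323 and 337, a log2 fold change of 0.09 with a 95% interval of -0.11 to 0.28 (adjusted p 0.43, edgeR). ORC4, an ATPase-fold subunit, was the only one of the 56 genes below 0 at an adjusted p under 0.05. It had 878 and 865 reads in LNCaP95 against 536 and 613 in LN95(KO), and its log2 fold change was -0.57 (standard error 0.07 and adjusted p 3.25e-06, edgeR). The 3 tested genes within 1000 kb of ORC4 had a median log2 fold change of -0.47, the lowest neighbour median of the 55 genes with at least 3 neighbours.

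The subunit levels of ORC therefore lay closer together in LN95(KO). Per length of union exons, as reads scaled by exon length and library size (RPKM), ORC1 was the lowest subunit in LNCaP95, at 0.833 and 0.735, and ORC5 the highest, at 12.7 and 11.5. The highest level was 15.3 and 15.6 times the lowest in the LNCaP95 libraries and 4.12 and 3.96 times in the LN95(KO) libraries. The ratio of ORC1 to ORC2 was 0.155 and 0.133 in LNCaP95 against 0.799 and 0.988 in LN95(KO). With the longest transcript as length the ORC span was 27.9 and 28.4 against 5.65 and 5.43, again narrower in both LN95(KO) libraries.

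Loading of the helicase is carried out by CDC6 and CDT1 and held back by geminin (GMNN), which binds CDT1. CDC6, the ATPase that joins ORC at origins, had 231 and 257 reads in LNCaP95 against 1065 and 1391 in LN95(KO). Its log2 fold change was 2.36 (standard error 0.12 and adjusted p 1.41e-09, edgeR). CDT1 had 627 and 636 reads against 1671 and 1945, a log2 fold change of 1.55. Its inhibitor moved less: GMNN had 476 and 385 reads against 563 and 704, a log2 fold change of 0.59 (95% interval 0.36 to 0.82), and was not called. Per length, the ratio of CDT1 to GMNN was 1.18 and 1.48 in LNCaP95 against 2.66 and 2.48 in LN95(KO). These are transcript ratios, and the proteins are also controlled by degradation.

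All 6 subunits of MCM2-7, the helicase that unwinds the fork, were higher in LN95(KO), and 5 of the 6 were called. MCM4, with the largest estimate of the ring, lies at chr8:48872745-48890720 and had 326 and 277 reads in LNCaP95 against 1026 and 1411 in LN95(KO). Its level went from 16.4 ± 1.8 to 67.6 ± 13.7 CPM (SD, n = 2 libraries each), and its log2 fold change was 2.05 (standard error 0.16 and adjusted p 4.66e-05, edgeR). MCM5 had 218 and 237 reads against 701 and 968, and MCM2 had 360 and 375 against 1092 and 1542. The log2 fold changes of MCM5 and MCM2 were 1.91 and 1.87. MCM7 had the highest counts of the ring, 1208 and 1100 against 2807 and 3774, with a log2 fold change of 1.54. MCM3 had 543 and 583 reads against 1123 and 1565, with a log2 fold change of 1.29.

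MCM6 was the subunit that fell short of 2-fold. It had 768 and 738 reads in LNCaP95 against 1069 and 1323 in LN95(KO), and its log2 fold change was 0.70 with a 95% interval of 0.53 to 0.87. That interval lies below those of the other MCM subunits, the lowest of which begins at 0.90 for MCM3. Per length the ratio of MCM2 to MCM6 moved from 0.411 and 0.446 in LNCaP95 to 0.896 and 1.02 in LN95(KO). The ratio of MCM4 to MCM6 moved from 0.178 and 0.158 to 0.403 and 0.448. MCM7 was the highest subunit in every library, at 13.2 and 12.1 RPKM in LNCaP95 against 32.0 and 41.7 in LN95(KO). The span of the ring, highest over lowest, was 8.12 and 7.89 in LNCaP95 against 5.87 and 5.71 in LN95(KO), so the ring remained unequal at the transcript level.

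**Figure D3:**
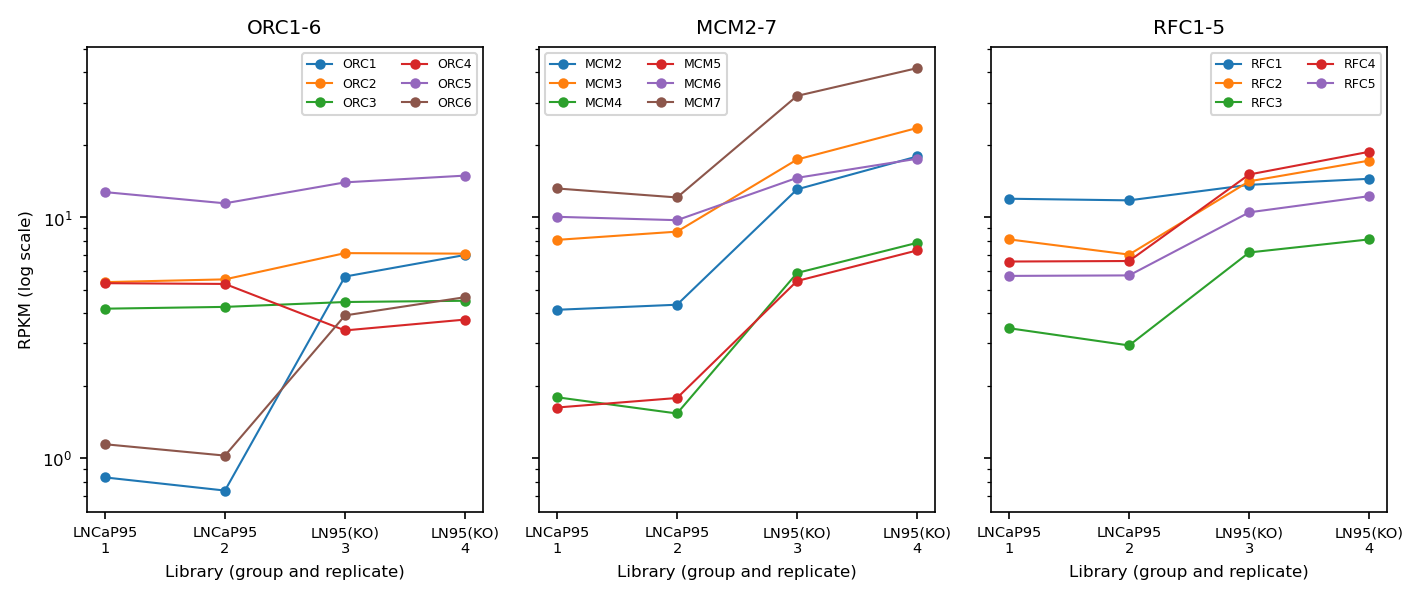
Level per union exon length (RPKM, log scale) of each subunit of ORC, MCM2-7 and RFC1-5 in each of the 4 libraries; each line joins the values of 1 gene. ORC1 rises from the lowest ORC level, at 0.833 and 0.735, to 5.68 and 6.99, while MCM7 stays the highest of its ring.

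The helicase activators had every member called higher, 6 of 6, and a median log2 fold change of 2.52. CDC45, which joins the MCM ring at firing, lies at chr22:19466980-19508135. CDC45 had 51 and 53 reads in LNCaP95 against 511 and 664 in LN95(KO), and went from 2.83 ± 0.0923 to 32.6 ± 5.31 CPM (SD, n = 2 libraries each). Its log2 fold change was 3.53 (standard error 0.15 and adjusted p 1.14e-12, edgeR), higher than 99.0% of genes tested. MCM10, a factor needed for the ring to begin unwinding, had 44 and 42 reads against 388 and 519, a log2 fold change of 3.43. Neither gene had an LN95(KO) count near its LNCaP95 counts.

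The 4 GINS genes encode a stable tetramer and moved by unequal amounts. GINS4 had 46 and 29 reads in LNCaP95 against 206 and 223 in LN95(KO), and its log2 fold change was 2.54. GINS1 had 42 and 58 reads against 248 and 308, and GINS2 had 79 and 80 against 335 and 438. Their log2 fold changes were 2.5 and 2.31. GINS3 moved least, with 110 and 101 reads against 244 and 289 and a log2 fold change of 1.37, its 95% interval of 1.09 to 1.64 lying below those of the other GINS genes. In GINS4, exons of other genes covered 23.4% of exon bases, but those genes had at most 1 count in a library. The subunit span per length was 4.68 and 4.67 in LNCaP95 against 3.36 and 3.54 in LN95(KO).

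Origin firing needs the kinase CDC7 with its activator DBF4 and the factors TICRR, MTBP and RECQL4. TICRR, also known as treslin, showed the largest change of all 56 genes. TICRR at chr15:90118700-90174287 had 32 and 29 reads in LNCaP95 against 343 and 454 in LN95(KO). Its level went from 1.66 ± 0.106 to 22.1 ± 3.89 CPM (SD, n = 2 libraries each), and its log2 fold change was 3.73 (standard error 0.17 and adjusted p 5.54e-12, edgeR). MTBP, the partner that binds treslin, had 36 and 33 reads against 52 and 76, a log2 fold change of 0.92 with a wide 95% interval of 0.42 to 1.42, and was not called. The intervals of these 2 partners lie far apart.

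The kinase and its activator also differed in size of change. DBF4 had 237 and 269 reads in LNCaP95 against 724 and 957 in LN95(KO), and its log2 fold change was 1.76. CDC7, the catalytic subunit, had 385 and 355 reads against 585 and 733, a log2 fold change of 0.86 (95% interval 0.66 to 1.07), and was not called. Of the 100-base windows of DBF4 transcripts, 7.76% also occur in DBF4P1, a pseudogene with which reads can be exchanged. RECQL4, a helicase of the RecQ family, had 233 and 268 reads against 588 and 693, a log2 fold change of 1.39. Without LN95(KO) replicate 3, CDC7 and MTBP were also called and all 5 genes of the group passed.

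Polymerase alpha and primase start each new strand with a short RNA and DNA primer. PRIM1, the catalytic primase subunit, had 73 and 58 reads in LNCaP95 against 159 and 226 in LN95(KO), and its log2 fold change was 1.58 (standard error 0.18 and adjusted p 8.38e-07, edgeR). PRIM2, its regulatory partner, had 31 and 40 reads against 73 and 103, and POLA2 had 47 and 28 against 85 and 96. Their log2 fold changes were 1.34 and 1.30, and both genes were called. POLA2 was not called without LNCaP95 replicate 2, at a log2 fold change of 0.98.

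The catalytic subunit did not follow. POLA1 at chrX:24711990-25015103 had 370 and 409 reads in LNCaP95 against 306 and 381 in LN95(KO), the only gene of the 56 whose scaled groups overlapped. Its log2 fold change was -0.15 with a 95% interval of -0.37 to 0.07 (adjusted p 0.226, edgeR), and it lay between -0.29 and -0.02 over the alternatives. Its adjusted p ranged from 0.0455, without LN95(KO) replicate 4, to 0.899 (edgeR). Per length, the ratio of PRIM1 to POLA1 was 0.927 and 0.666 in LNCaP95 against 2.44 and 2.79 in LN95(KO). The counts of 3 of these genes are less certain, since exons of other genes covered 21.3% of exon bases in POLA2, 19.1% in PRIM1 and 18.3% in PRIM2. One of these others, NACA, had 7259 and 7110 reads in LNCaP95 against 6740 and 6903 in LN95(KO). The part of shared reads in the PRIM1 value was not tested.

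Polymerase epsilon, which extends the leading strand, had 1 of 4 genes called higher, against 8.86% of all genes tested. POLE2, a non-catalytic subunit that also contacts the helicase, had 47 and 35 reads in LNCaP95 against 141 and 228 in LN95(KO). Its log2 fold change was 2.20 (standard error 0.23 and adjusted p 1.21e-06, edgeR). The catalytic gene POLE had 561 and 530 reads against 766 and 810, a log2 fold change of 0.56 (95% interval 0.41 to 0.71). The small histone-fold subunits moved by amounts between those. POLE3 had 1134 and 1190 reads against 1833 and 2356, and POLE4 had 473 and 467 against 694 and 755. Their log2 fold changes were 0.88 and 0.66. POLE3 was also called without LN95(KO) replicate 3. Per length, the ratio of POLE2 to POLE was 0.352 and 0.278 in LNCaP95 against 0.774 and 1.18 in LN95(KO).

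Polymerase delta, the main lagging strand polymerase, had 1 of 3 genes called higher, against 8.86% of all genes tested. POLD1, the catalytic subunit, had 171 and 160 reads in LNCaP95 against 301 and 390 in LN95(KO), and its log2 fold change was 1.09 (standard error 0.12 and adjusted p 6.76e-07, edgeR). Without LN95(KO) replicate 4 its log2 fold change was 0.92 and no polymerase delta gene was called. POLD2 had the highest counts of the 56 genes, 4554 and 4231 against 6650 and 7613, with a log2 fold change of 0.73 (95% interval 0.61 to 0.85). POLD3 had 267 and 241 reads against 288 and 313, a log2 fold change of 0.27 (adjusted p 0.0281, edgeR). In polymerase alpha the catalytic gene was the one that did not rise, while in polymerase delta it was the one called.

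PCNA, the sliding clamp, and the loader RFC1-5 that opens it had 4 of 6 genes called. PCNA at chr20:5095599-5107272 had 872 and 774 reads in LNCaP95 against 1534 and 1931 in LN95(KO), and its log2 fold change was 1.11 (standard error 0.09 and adjusted p 3.48e-07, edgeR). RFC4, with the largest estimate of the group, had 363 and 362 reads against 800 and 1025, a log2 fold change of 1.36. RFC2 had 331 and 284 reads against 553 and 695, and RFC3 had 183 and 154 against 362 and 423. Their log2 fold changes were 1.05 and 1.25. RFC5 had 343 and 342 reads against 604 and 727 and lay just below the fold criterion, at 1.99-fold. It passed with library totals as the scaling. Without LN95(KO) replicate 4, PCNA and RFC2 were not called and 2 of the 6 genes remained, and RFC2 was also not called without LNCaP95 replicate 2.

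RFC1, the large subunit used only by the canonical loader, barely moved. RFC1 had 1482 and 1448 reads in LNCaP95 against 1623 and 1773 in LN95(KO), and its log2 fold change was 0.25 (95% interval 0.13 to 0.36). The genes of the alternative loaders, in which CHTF18 or ATAD5 takes the place of RFC1, were all called higher, 3 of 3. DSCC1, an accessory subunit of the CHTF18 loader, had 49 and 53 reads against 207 and 289, a log2 fold change of 2.31 (standard error 0.18 and adjusted p 4.68e-09, edgeR). CHTF18, whose loader is linked to sister chromatid cohesion, had 184 and 210 reads against 433 and 527, a log2 fold change of 1.32. ATAD5, which takes PCNA off DNA, had 48 and 55 reads against 160 and 163, a log2 fold change of 1.68. The interval of RFC1 lies below those of all 3, the lowest of which begins at 1.08. The span of RFC1-5 per length was 3.45 and 4.0 in LNCaP95 against 2.11 and 2.31 in LN95(KO), while with the longest transcript as length the groups overlapped, at 3.82 and 4.44 against 3.52 and 3.86.

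Replication protein A, which coats single-stranded DNA in replication and in repair, had 0 of 3 genes called by edgeR or DESeq2, although all 3 had an unadjusted p under 0.05. Among all genes tested 8.86% were called higher, so a 0 in a list of 3 is near that share and says little. RPA2 had 1054 and 1042 reads in LNCaP95 against 1294 and 1576 in LN95(KO), and its log2 fold change was 0.48 with a 95% interval of 0.33 to 0.64. RPA3 had 474 and 477 reads against 586 and 657, and RPA1 had 2988 and 2912 against 3299 and 3626. The log2 fold changes of RPA3 and RPA1 were 0.42 and 0.26. The subunit span per length was 3.59 to 3.91 in the 4 libraries.

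Okazaki fragments are trimmed by the nuclease FEN1 and sealed by the ligase LIG1, and both genes were called higher. LIG1 had 81 and 98 reads in LNCaP95 against 317 and 331 in LN95(KO), and its log2 fold change was 1.89 (standard error 0.13 and adjusted p 9.61e-10, edgeR). FEN1 had 467 and 452 reads against 978 and 1289, a log2 fold change of 1.33. The histone chaperone CAF-1, recruited by PCNA, rose by nearly the same amount in both large subunits. CHAF1A had 298 and 268 reads against 518 and 632, and CHAF1B had 277 and 310 against 520 and 673, each with a log2 fold change of 1.05. Both sit close to the fold criterion, and neither was called without LN95(KO) replicate 4, where the CAF-1 median was 0.91. CHAF1B was also not called without LNCaP95 replicate 1, and CHAF1A without LNCaP95 replicate 2.

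The other fork factors were called higher in 3 of 3 genes. TOP2A, the topoisomerase that untangles daughter duplexes and is also a gene of late cycle and mitosis, had 424 and 359 reads in LNCaP95 against 2732 and 3142 in LN95(KO). TOP2A went from 21.3 ± 2.38 to 163 ± 12.6 CPM (SD, n = 2 libraries each), and its log2 fold change was 2.94 (standard error 0.08 and adjusted p 2.47e-15, edgeR). DTL, also known as CDT2, which targets CDT1 for degradation on loaded PCNA, had 124 and 127 reads against 642 and 910, a log2 fold change of 2.66. WDHD1, which links polymerase alpha to the helicase, had 143 and 140 reads against 407 and 503, a log2 fold change of 1.72. CDT1 and the adaptor for its degradation thus rose together.

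**Figure D4:**
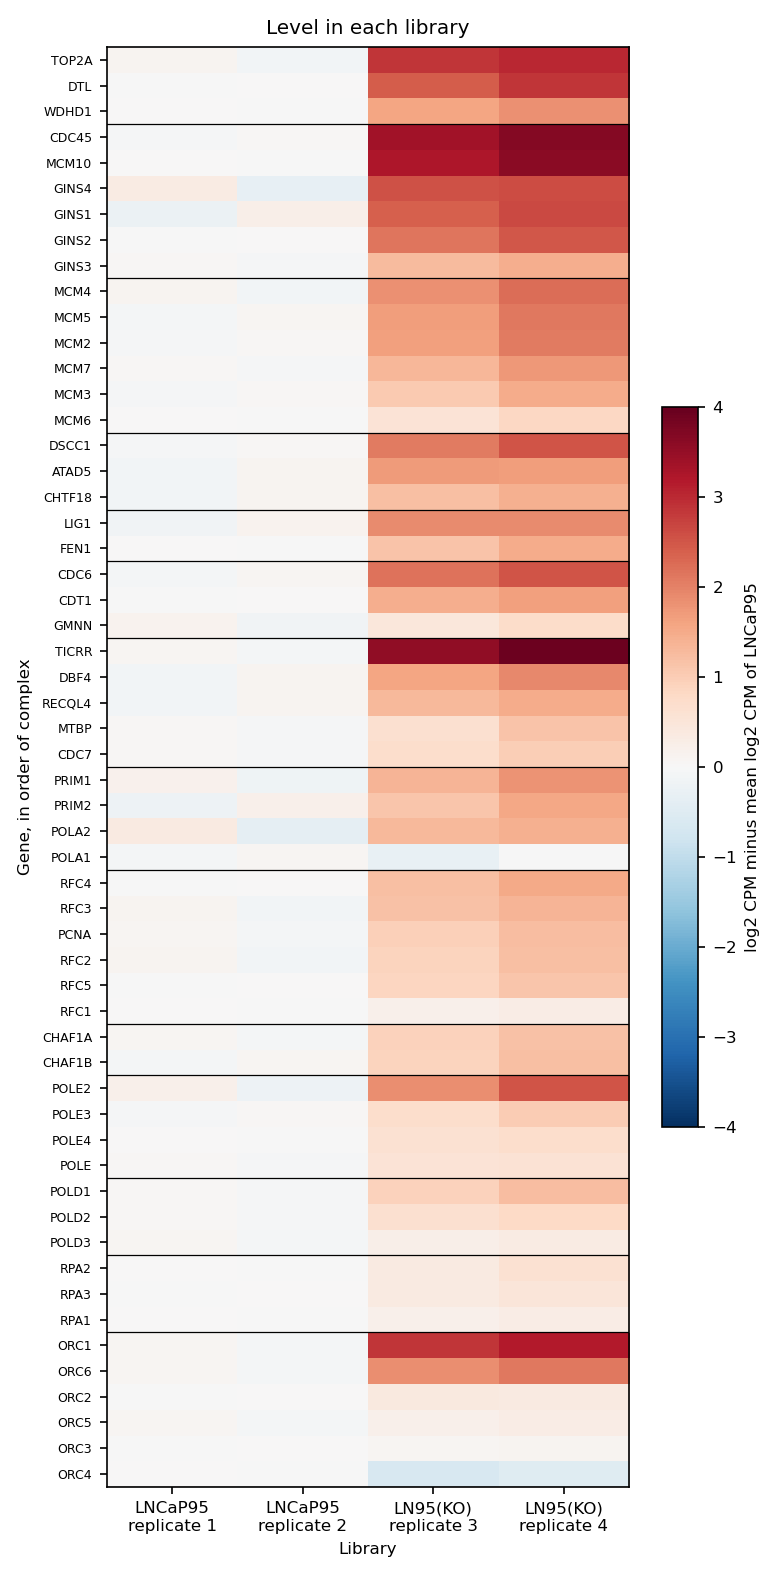
Level of each of the 56 genes in each library, as log2 CPM minus the mean log2 CPM of the LNCaP95 libraries, in the order of the complexes. The LN95(KO) columns are high for most genes and pale for ORC2 to ORC5, RPA1 to RPA3, RFC1 and POLA1, and the column of LN95(KO) replicate 4 is the higher in 54 of 56 genes.

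The LN95(KO) libraries were not equal. Replicate 4 stood above replicate 3 in 54 of the 56 genes, with a median difference of 0.26 on the log2 scale of CPM + 0.5, or 1.20-fold. Among all genes tested, 50.8% stood higher in replicate 4. In LNCaP95, replicate 2 stood above replicate 1 in 24 of the 56. Among the complexes the median difference was 0.41 for MCM2-7, the largest, and 0.12 for ORC and for replication protein A. Mitotic genes showed the same order in 23 of 24, with a median of 0.26. Without replicate 4, 32 of the 56 genes were called, with POLD1, PCNA, RFC2, CHAF1A and CHAF1B lost. Without replicate 3, 41 were called, with CDC7, MTBP, POLE3 and RFC5 added. The part of this difference in the results was not tested.

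**Figure D5:**
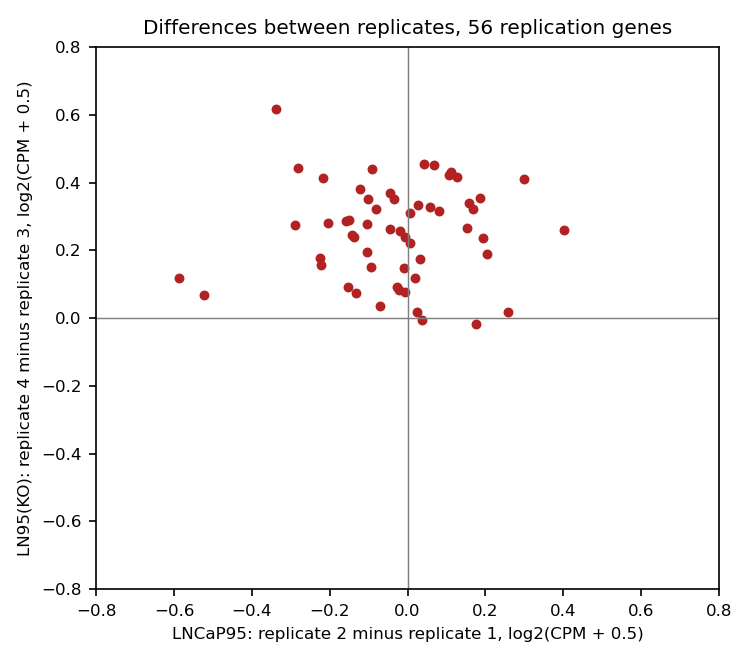
Difference between the replicates of LN95(KO) (y axis) against that between the replicates of LNCaP95 (x axis), both in log2(CPM + 0.5), for the 56 genes. Nearly every point, 54 of 56, lies above 0 on the y axis, while 24 of 56 lie to the right of 0 on the x axis.

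The calls were then set against the level in LNCaP95. Of 16 genes under 5 CPM there, 15 were called higher, the exception being MTBP. Of 30 genes from 5 to 40 CPM, 20 were called, and of 10 genes at or over 40 CPM, 2 were called, MCM7 and PCNA. The LNCaP95 level itself enters the fold change. The shares of all tested genes called at these levels were not counted, so the order cannot be read as particular to the 56 genes. Across the 56 genes the Pearson correlation between the log2 fold change and the level was -0.57 for the LNCaP95 level, which shares its libraries with the fold change, -0.38 for the mean of all libraries and -0.12 for the LN95(KO) level. These describe genes that share libraries and are not replicates. By the rank the values were -0.60, -0.43 and -0.19.

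Neighbouring genes were examined next. The 56 genes lie on 21 chromosomes. For the 55 genes with at least 3 tested genes within 1000 kb, the neighbours had medians of -0.47 to 0.33, with a median of -0.04, and 54 of the 55 had a log2 fold change above their neighbour median, the exception being ORC4. RFC3, with only 2 tested neighbours, lay below theirs: both neighbours were called higher, with a median log2 fold change of 2.19 against 1.25 for RFC3. Exons of other annotated genes covered some exon bases in 30 of the 56 genes and over 10% in 7, and counting did not use strand. The largest share was that of MCM2, at 23.6%, where the opposite gene ENSG00000285600 had 18 and 8 reads in LNCaP95 against 3 and 7 in LN95(KO). POLA2 had 48.1% of its 100-base windows in common with ENSG00000285816, which had at most 4 counts. In all, 17 of the 56 genes had such a window in transcripts of other genes. The share was 17.7% for ORC6, which was called higher, and 8.56% for ORC4. The part of these windows in the values was not tested.

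Replication genes outside the 56 were counted as a list of their own. Of 29 further replication and fork genes, 28 were tested, with a median log2 fold change of 0.59. By edgeR 12 were called higher and 0 lower, against 8.86% and 9.13% of all genes tested. PCLAF, a small protein that binds PCNA, had 10 and 12 reads in LNCaP95 against 118 and 120 in LN95(KO), and its log2 fold change was 3.45. CLSPN, the checkpoint mediator claspin, had 22 and 15 reads against 119 and 152, a log2 fold change of 2.90. The topoisomerases of general use, TOP1 and TOP2B, had log2 fold changes of -0.01 and 0.14, unlike TOP2A.

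Deoxynucleotide supply had 6 of 14 genes called higher, against 8.86% of all genes tested, with a median of 0.63. RRM2, the cell cycle form of the small ribonucleotide reductase subunit, had 104 and 96 reads in LNCaP95 against 1116 and 1470 in LN95(KO), and its log2 fold change was 3.72. TK1, the cytosolic thymidine kinase, had 490 and 489 reads against 2711 and 3547, a log2 fold change of 2.71. Their counterparts outside the cycle, RRM2B and the mitochondrial TK2, had log2 fold changes of 0.01 and -0.01. DCTD, which makes deoxyuridine monophosphate, had a log2 fold change of -0.75 and was not called.

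The ubiquitin ligases that remove licensing factors had 1 of 8 genes called higher, a share near the 8.86% of all genes, with a median of 0.33. That gene was CKS1B, a cofactor of SKP2, with 462 and 428 reads in LNCaP95 against 1336 and 1692 in LN95(KO) and a log2 fold change of 1.80. CUL4A and DDB1, the scaffold and adaptor that work with DTL, had log2 fold changes of 0.14 and 0.25. Of 8 other histone chaperones tested, 1 was called higher, also near that share. It was ASF1B, with 136 and 128 reads against 614 and 782 and a log2 fold change of 2.43. Its paralog ASF1A, which also hands histones to CAF-1, had a log2 fold change of -0.10 (adjusted p 0.274, edgeR). None of the genes in these lists, 0 in each, were called lower by edgeR, against 9.13% of all genes tested. In lists of 8 genes a 0 is near that share and says little.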

How the data were processed

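RNA-Seq of poly(A) RNA, sequenced on the DNBseq platform, was compared between LNCaP95 and LN95(KO) cells, with 2 libraries each and groups taken from the sample labels. Per the submitters, HISAT2 (version 2.1.0) served for alignment to hg19. The authors deposited raw counts per gene, made by HTSeq on GENCODE without use of strand, which drops reads that fall on several genes. The 5 summary lines of each library were left out; reads not aligned made up 3.85% to 8.05% and ambiguous reads 9.82% to 10.4%. A joint table of all libraries was identical, with 0 cells that differed. No columns of other samples were present (0).

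Counts were tested with edgeR (version 4.0.16, R version 4.3.3) by its robust quasi-likelihood test with TMM factors and no covariate, on the 15626 genes kept by filterByExpr (minimum count 10, minimum total count 15), after tests on simulated data. P-values were adjusted over all genes tested. The study used DESeq2, run here (version 1.42.0) as an alternative, as were other scalings, no filter, other fold criteria and each library left out. Standard errors were derived from the F statistic. Permuting 2 libraries against 2 cannot give a two-sided p under 0.333, and was not used. A count of 0 allows up to 3 counts, or 0.163 to 0.169 CPM, for counting error only.

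Symbols were matched by Ensembl identifier (59859 of 60880). Positions, exon overlap and lengths came from GENCODE v44 on GRCh37, a later release than the counts, and promoters from RefSeq on GRCh38.p14. The genes, their grouping and the other lists were chosen with earlier results of these data known. Counts in every library were given by rule for the largest called change of each complex, all ORC and MCM2-7 subunits and the 2 largest called changes of each other list; further values and names were chosen after they were seen. Protein sequences were not analysed here. Some marker genes are not reported here.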

Additional observations from a re-analysis of the deposited data

Results flagged for a closer look

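The share of reads that could not be aligned, which lies outside the counts compared above, was higher in LN95(KO) than in LNCaP95. It was 8.05% and 7.71% in LN95(KO), with 7.7074% as the lower share, against 3.85% and 3.96% in LNCaP95. These reads carry no gene, so they enter no value of the replication genes. Their part in the results was not tested.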

How the results depend on the processing

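No paired analysis was possible because LNCaP95 libraries are numbered 1 and 2 and LN95(KO) libraries 3 and 4. Of 504 fold changes of the 56 genes under other scalings, DESeq2, no filter and each library left out, 0 reversed, 490 stayed called or not called as before, 9 lost the call and 5 gained it. The number called higher was 37 with RLE factors, upper quartile factors, DESeq2 and no filter, 38 with library totals, 32 to 41 with a library left out, and 29 under glmTreat, which tests against a 2-fold change. At any fold, 1 gene, ORC4, was lower. The count of all genes called, 2811, became 1687 under glmTreat and 9349 at any fold, by construction of those criteria. The polymerase epsilon median of 0.77 was 0.82 with library totals and 0.73 with upper quartile factors; library totals shift the median of all genes to 0.05. With 1 library left out, where the lone sample is assumed to vary like the others, medians ranged from 1.18 to 1.48 for the 56 genes, 1.49 to 1.90 for MCM2-7, 0.67 to 0.87 for polymerase epsilon, 0.93 to 1.22 for clamp and loader, 0.91 to 1.19 for CAF-1 and 2.41 to 2.87 for the other fork factors, each lowest without LN95(KO) replicate 4 and highest without replicate 3. The cause was not tested. Depth limits genes such as POLA2, PRIM2, MTBP, TICRR and GINS4, with 28 to 47 counts in the LNCaP95 libraries.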
